A study of Mus musculus with 12 samples.

Results

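Expression of 9 nuclear genes for subunits of oxidative phosphorylation was followed across 12 arrays of mouse left ventricle: Ndufs8, Ndufv3, Ndufb3 and Ndufb7 of complex I, Uqcrh of complex III, Cox7a1 and Ndufa4l2 of complex IV, and Atp5e and Atp5j2 of complex V. Ndufa4l2 is grouped with complex IV here only as a paralog of its subunit Ndufa4. The genes were chosen by a measured value: each has a name here because the study listed it as lower in infarcted hearts without miR-150 in cardiomyocytes than in infarcted control hearts. They are 9 of the 876 genes with a named probe and are read by 10 of the 60819 probes analysed, because Ndufs8 has a probe for each of the transcripts NM_001271443 and NM_001271444. Of the subunits listed for each complex, a name was at hand for 4 of 44 in complex I, 0 of 4 in complex II, 1 of 10 in complex III, 2 of 21 in complex IV and 2 of 18 in complex V. The subunits without a name, including those of the mitochondrial genome, are not analysed here.

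The respiratory chain passes electrons from NADH through complexes I, III and IV to oxygen and pumps protons across the inner mitochondrial membrane, and complex V uses the proton gradient to make ATP. The beating ventricle draws most of its ATP from this chain, and cardiomyocytes are packed with mitochondria. All 9 genes are transcribed in the nucleus. Subunits from nuclear genes are imported and built into complexes that also hold subunits made inside the mitochondrion.

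Each of the 4 groups held 3 C57BL/6J hearts, from 1 male and 2 females. Controls carried a floxed miR-150 gene without Cre (miR-150 fl/fl). Knockouts (αMHC-Cre;miR-150 fl/fl, here miR-150 cKO) had Cre driven by the αMHC promoter in addition, which is active in cardiomyocytes. Hearts were taken 4 weeks after sham surgery or after myocardial infarction (MI) caused by tying off the left anterior descending artery. Ages at harvest were 13 to 14 weeks for sham miR-150 fl/fl, 14 to 15 for sham miR-150 cKO, 14 for MI miR-150 fl/fl and 15 for MI miR-150 cKO. No group carried Cre without the floxed gene, so an effect of Cre and loss of miR-150 cannot be told apart, and other cells of the ventricle keep miR-150. Values are log2 signal relative to the array's own 75th percentile, so that 0 is the 75th percentile of that array and a difference of 1 is 2-fold.

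Between 74.1% and 90.3% of probes were well above background on the single arrays. The lowest shares were those of sham miR-150 cKO replicates 2 (74.1%) and 3 (76.1%), and the other arrays had 81.5% or more. All 10 subunit probes were well above background on all 12 arrays. The files name no slides, so slides and rows were inferred from the scan batches and array positions in the file headers. By this inference, slide 1 held MI miR-150 cKO replicates 1 to 3 together with replicate 3 of MI miR-150 fl/fl. Slide 2 held the other arrays, with the 3 sham miR-150 fl/fl arrays and sham miR-150 cKO replicate 1 in row 1, and sham miR-150 cKO replicates 2 and 3 and MI miR-150 fl/fl replicates 1 and 2 in row 2. Genotype after MI and inferred slide are therefore nearly the same split. The unscaled 75th percentile was from 8.70 to 8.87 (log2 intensity) for MI miR-150 cKO, above the 8.52 to 8.62 of MI miR-150 fl/fl.

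Genes of the respiratory chain are often described as sharing promoter elements for a few transcription factors, so the promoter windows of the members were read for 4 such motifs. RefSeq windows of 300 bases on GRCm38.p6, from 250 before the transcription start to 50 after it, were at hand for 8 of the 9 genes. The ETS motif CCGGAAG was found on either strand in 4 of the 8 windows and in 8.86% of 32851 windows of all genes. The windows of Ndufb3, Ndufv3, Cox7a1 and Atp5j2 held none of the motifs searched. The estrogen-related receptor motif AAGGTCA was in 1 of 8 and 4.72% of all windows, the NRF1 motif GCGCANGCG in 0 of 8 and 6.25%, and the YY1 motif ATGGCGG in 0 of 8 and 4.05%. The 4 windows with a match are printed below from 5′ to 3′ along the gene to show where the letters lie, and the capitals mark the matches. No test links the matches to the array values.
Ndufb7, chr8:83566508-83566807, plus strand: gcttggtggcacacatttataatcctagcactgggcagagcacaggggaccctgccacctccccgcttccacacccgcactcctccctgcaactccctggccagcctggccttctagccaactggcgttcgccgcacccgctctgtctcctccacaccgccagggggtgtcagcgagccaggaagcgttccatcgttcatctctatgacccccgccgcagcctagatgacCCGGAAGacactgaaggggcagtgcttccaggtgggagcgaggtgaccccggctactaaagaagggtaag
Ndufs8, chr19:3912725-3913024, minus strand: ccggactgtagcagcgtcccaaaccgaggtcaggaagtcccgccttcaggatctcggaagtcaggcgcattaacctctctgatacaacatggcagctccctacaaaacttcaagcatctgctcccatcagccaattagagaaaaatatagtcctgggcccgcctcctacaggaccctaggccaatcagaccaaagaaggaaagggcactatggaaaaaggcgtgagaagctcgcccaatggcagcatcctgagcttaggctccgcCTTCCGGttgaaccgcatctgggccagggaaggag
Uqcrh, chr4:116075021-116075320, minus strand: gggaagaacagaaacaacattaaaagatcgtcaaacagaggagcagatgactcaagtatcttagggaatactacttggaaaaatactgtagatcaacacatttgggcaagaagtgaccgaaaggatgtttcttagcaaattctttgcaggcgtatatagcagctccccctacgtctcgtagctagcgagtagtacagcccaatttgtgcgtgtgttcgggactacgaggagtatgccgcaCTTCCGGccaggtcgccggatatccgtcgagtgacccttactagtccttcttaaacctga
Atp5e, chr2:174464052-174464351, minus strand: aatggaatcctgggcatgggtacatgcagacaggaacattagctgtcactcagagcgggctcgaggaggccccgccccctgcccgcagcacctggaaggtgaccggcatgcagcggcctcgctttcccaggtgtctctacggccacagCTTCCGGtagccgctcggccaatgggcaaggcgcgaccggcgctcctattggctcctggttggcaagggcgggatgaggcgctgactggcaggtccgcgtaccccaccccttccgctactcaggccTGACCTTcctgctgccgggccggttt
Counted from the transcription start, the ETS letters lay at -20 to -14 in Ndufb7, -10 to -4 in Uqcrh, -102 to -96 in Atp5e and 16 to 22 in Ndufs8. The match was on the gene's strand in Ndufb7 and on the opposite strand in the other 3. In Atp5e the second run of capitals is the estrogen-related receptor motif on the opposite strand, at 25 to 31. A match is only a run of letters, and no binding was measured.

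Complex I, the entry point for electrons from NADH, was read by 5 probes. Ndufs8, a core subunit that carries iron-sulfur clusters, read 2.56, 2.99 and 3.04 in sham miR-150 fl/fl, 2.85, 3.09 and 3.14 in sham miR-150 cKO, 3.06, 2.54 and 2.78 in MI miR-150 fl/fl, and 2.24, 2.14 and 2.58 in MI miR-150 cKO for transcript NM_001271443. Its other transcript, NM_001271444, read 2.75, 2.90 and 3.13, then 3.02, 3.18 and 3.06, then 3.16, 2.70 and 2.76, and then 2.34, 2.20 and 2.56 in the same order of groups. Both probes were lowest on MI miR-150 cKO replicate 2, and MI miR-150 fl/fl replicates 2 and 3 lay below sham miR-150 cKO, which sets Ndufs8 apart in level after MI from the subunits described next.

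Ndufb3, an accessory subunit of the membrane arm, read 3.40, 3.87 and 3.89 in sham miR-150 fl/fl, 3.79, 4.03 and 4.01 in sham miR-150 cKO, 3.96, 3.89 and 3.78 in MI miR-150 fl/fl, and 3.23, 3.11 and 3.55 in MI miR-150 cKO. Ndufb7, an accessory subunit on the side of the intermembrane space, read 4.69, 5.06 and 4.95, then 4.83, 5.05 and 4.91, then 5.03, 4.98 and 4.90, and then 4.48, 4.41 and 4.66 in that order. For both, the MI miR-150 cKO arrays lay below all MI miR-150 fl/fl and all sham miR-150 cKO arrays, and sham miR-150 fl/fl replicate 1 was the lowest of the other 9. Ndufv3, an accessory subunit of the arm that takes up NADH, read 6.39, 7.16 and 6.90 in sham miR-150 fl/fl, 6.69, 6.78 and 6.79 in sham miR-150 cKO, 6.76, 6.76 and 6.74 in MI miR-150 fl/fl, and 6.12, 6.08 and 6.55 in MI miR-150 cKO. Its 3 MI miR-150 fl/fl arrays agreed to an SD of 0.01, and its sham miR-150 fl/fl arrays had an SD of 0.39.

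Uqcrh, the hinge protein of complex III that helps hand electrons to cytochrome c, read 0.49, 0.98 and 1.15 in sham miR-150 fl/fl, 0.97, 1.20 and 1.23 in sham miR-150 cKO, 1.08, 1.09 and 0.82 in MI miR-150 fl/fl, and 0.39, 0.12 and 0.61 in MI miR-150 cKO. The MI miR-150 cKO arrays were below both the MI miR-150 fl/fl and the sham miR-150 cKO arrays, and overlapped with sham miR-150 fl/fl through its replicate 1 alone. Cox7a1, the heart and muscle isoform of a small complex IV subunit, read 8.12, 8.69 and 8.53 in sham miR-150 fl/fl, 8.03, 8.54 and 8.62 in sham miR-150 cKO, 8.38, 8.25 and 8.55 in MI miR-150 fl/fl, and 7.74, 7.64 and 8.22 in MI miR-150 cKO. Ndufa4l2, a paralog of the complex IV subunit Ndufa4 that is known as a gene induced by low oxygen, read 6.71, 7.64 and 7.48, then 7.14, 7.75 and 7.86, then 7.50, 7.24 and 7.20, and then 6.67, 6.60 and 7.20 in that order. In both of these genes MI miR-150 cKO replicate 3 reached the range of the sham miR-150 cKO arrays, and in Ndufa4l2 it also reached that of the MI miR-150 fl/fl arrays.

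Complex V was read through a subunit of each of its parts. Atp5e, the epsilon subunit at the foot of the rotating stalk, read 5.23, 6.20 and 5.97 in sham miR-150 fl/fl, 5.80, 6.02 and 6.20 in sham miR-150 cKO, 5.87, 6.20 and 5.82 in MI miR-150 fl/fl, and 5.17, 4.99 and 5.81 in MI miR-150 cKO. Atp5j2, the f subunit of the membrane part, read 3.56, 4.44 and 4.27, then 4.14, 4.50 and 4.60, then 4.24, 4.35 and 4.07, and then 3.54, 3.37 and 3.99 in that order. MI miR-150 cKO replicates 1 and 2 were the lowest of the 12 arrays for Atp5e, and replicate 3 lay at 5.81 against 5.82 for the lowest MI miR-150 fl/fl array. Within sham miR-150 fl/fl the SD was 0.51 for Atp5e and 0.47 for Atp5j2, because replicate 1 read far below replicates 2 and 3.

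**Figure D1:**
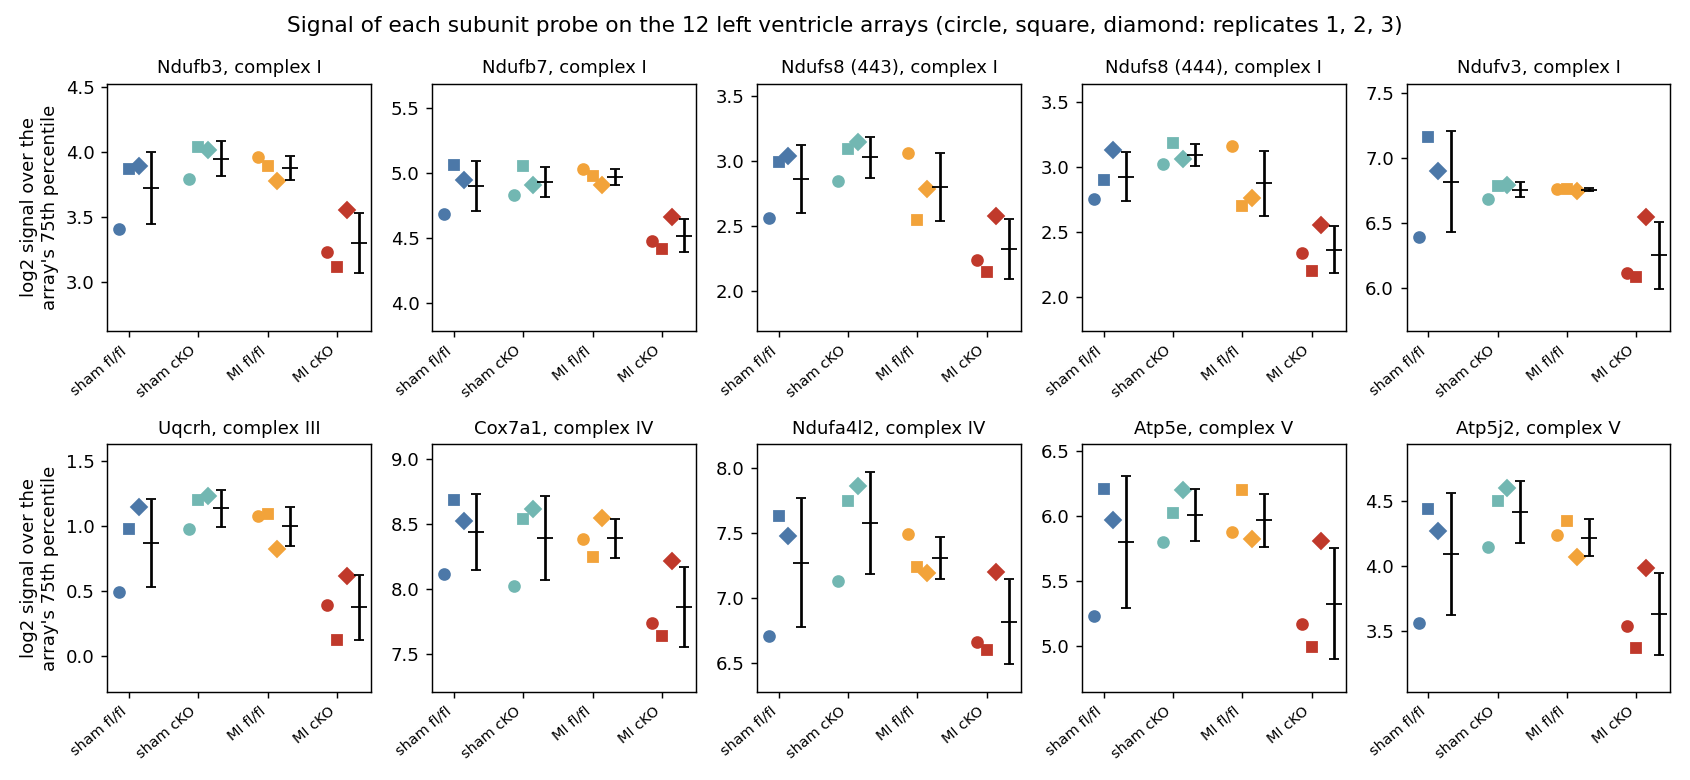
Log2 signal over the 75th percentile of the array (y axis, the same span in every panel) for each subunit probe in the 4 groups (x axis). Symbols are single arrays, and the black bar is the mean with its SD over 3 arrays. The MI miR-150 cKO mean is the lowest of the 4 in each panel, and the circle of sham miR-150 fl/fl replicate 1 lies below its group.

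The comparison that chose the members was that of the genotypes after MI, and its values are a description without a test. MI miR-150 cKO was lower than MI miR-150 fl/fl for all 10 probes, with log2 differences between -0.64 for Atp5e (SE 0.27) and -0.45 for Ndufb7 (SE 0.12) around a median of -0.52. The median is a signal lower by 30.2%. By complex, the median difference was -0.51 for complex I, -0.62 for Uqcrh of complex III, -0.51 for complex IV and -0.61 for complex V. The 3 MI miR-150 cKO arrays were all below the 3 MI miR-150 fl/fl arrays for 8 probes, the exceptions being Ndufa4l2 and Ndufs8 NM_001271443, and 13.1% of the 54232 probes tested had this order. On the log2 values that the authors deposited, where the members were selected, the ratio of the groups ran from 0.564 for Atp5e to 0.661 for Ndufs8 NM_001271443, the member nearest to the limit of a 1.5-fold difference. No value is given for a subunit just outside that limit, because names came with the listed entries.

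All tested probes had a median difference of 0.00 in this comparison. Among the 10330 tested probes at least as bright as the dimmest member, the median was 0.08, and 40.1% were below 0. The 15 probes of housekeeping genes, which were named by accession and not by a measured value, had a median of -0.01 and a range from -0.39 for Rpl13a to 0.39 for Gapdh. Ppia, another housekeeping gene, had -0.35.

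Within slide 1, the 3 MI miR-150 cKO arrays were below MI miR-150 fl/fl replicate 3 by a median of -0.46 (range -0.68 to -0.38 over the 10 probes), and all 3 were below it for 9 probes. That comparison rests on 1 control array. The brighter 75th percentile of the MI miR-150 cKO arrays entered the scaled values, and without any scaling between arrays the median difference was -0.26. The unscaled mean of the 10 probes was 13.06, 12.94 and 13.27 (log2 intensity) in MI miR-150 cKO, and in MI miR-150 fl/fl it was 13.42, 13.42 and 13.28, so that the replicates numbered 3 of both groups lay close together. The part of overall array brightness in the result was not tested. RNA came from whole ventricle, where fewer cardiomyocytes and less of these transcripts per cardiomyocyte cannot be told apart.

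Comparisons of MI with sham inside each genotype share arrays with the choice of the members and are also given as values alone. In miR-150 fl/fl the 10 probes lay around 0, with a median of 0.05, a range from -0.07 for Ndufs8 NM_001271443 to 0.16 for Atp5e, and 6 of 10 above 0. That median was -0.13 when slide and row entered the fit and 0.10 when slide alone did. No probe had all MI arrays below all sham arrays in miR-150 fl/fl, an order that 4.78% of tested probes had. In miR-150 cKO all 10 probes were lower after MI, with a median of -0.69, a range from -0.78 for Atp5j2 to -0.41 for Ndufb7, and no overlap for 7 probes, against 13.0% of tested probes. The exceptions were Cox7a1, Ndufa4l2 and Atp5e. The difference between the 2 responses to MI ran from -0.91 for Atp5j2 to -0.44 for Ndufv3.

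**Figure D2:**
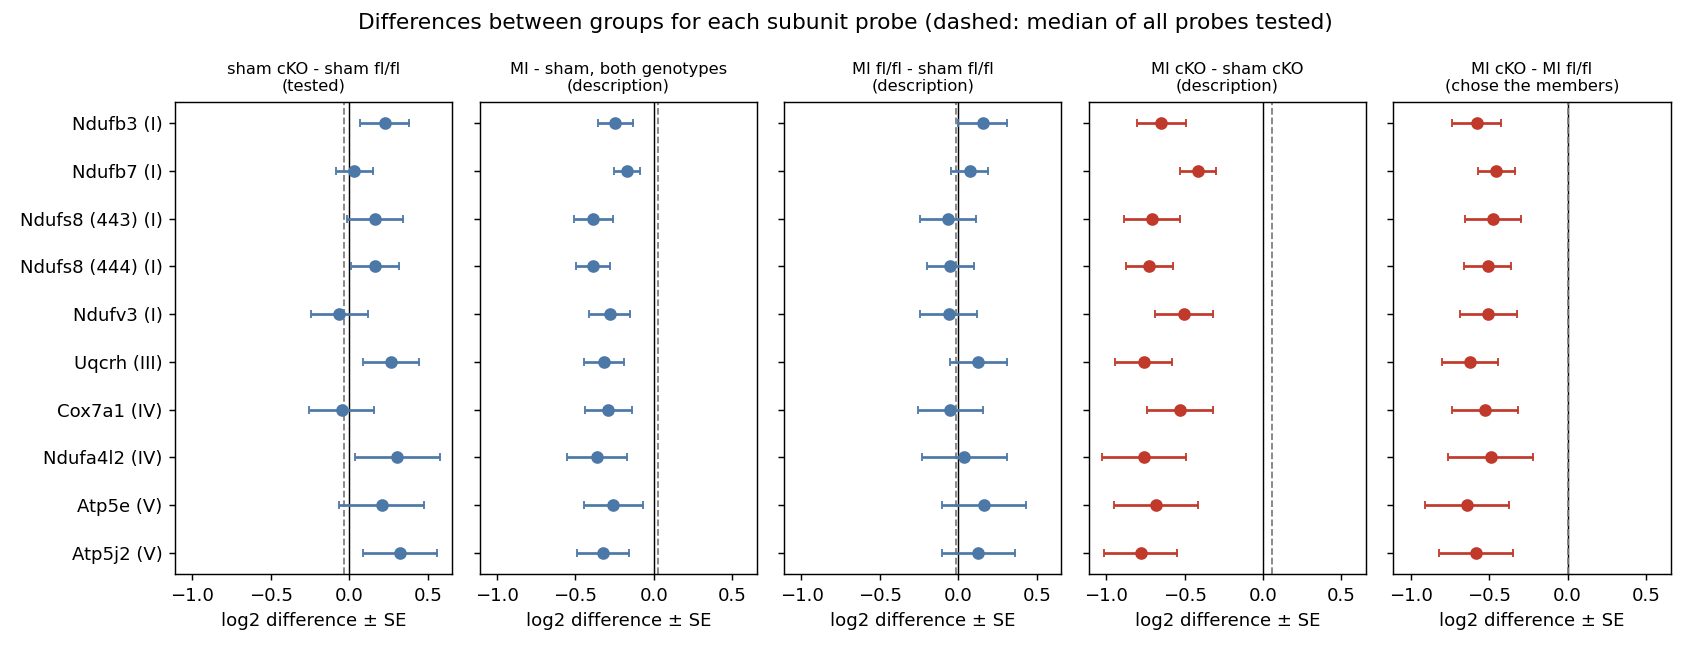
Log2 difference with its SE (x axis) for each subunit probe (y axis, complex in brackets) in 5 comparisons, with the median of all tested probes dashed. Points lie near 0 for MI in miR-150 fl/fl, at -0.78 to -0.41 for MI in miR-150 cKO, and at -0.39 to -0.17 for MI over both genotypes.

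MI against sham over both genotypes rests on the same MI arrays that chose the members, and the MI miR-150 cKO arrays spread more than the MI miR-150 fl/fl arrays for most probes (SD 0.26 against 0.01 for Ndufv3, 0.43 against 0.20 for Atp5e), so its values are a description too and no p is given. All 10 probes were lower after MI, with a median log2 difference of -0.30, or a signal lower by 19.0%, where 44.2% of tested probes were lower by any amount and the median of all was 0.02. None was past the limits of a 1.5-fold difference and an unadjusted p of 0.05 (0 of 10), and of all tested probes 0.129% were past them as lower and 1.02% as higher. Nothing is read from these counts about the members.

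Ndufs8 of complex I had log2 differences of -0.39 (SE 0.11) in NM_001271444, with means of 3.01 over sham and 2.62 over MI arrays, and -0.39 (SE 0.13) in NM_001271443. Ndufb7 of the same complex had the smallest, -0.17 (SE 0.08). Uqcrh of complex III had -0.32 (SE 0.13). In complexes IV and V the values ran from -0.26 (SE 0.19) for Atp5e to -0.36 (SE 0.19) for Ndufa4l2.

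The mean over genotypes combines a median of 0.05 in miR-150 fl/fl with one of -0.69 in miR-150 cKO, so it is not the response of either. With slide as a block its median was -0.21.

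**Figure D3:**
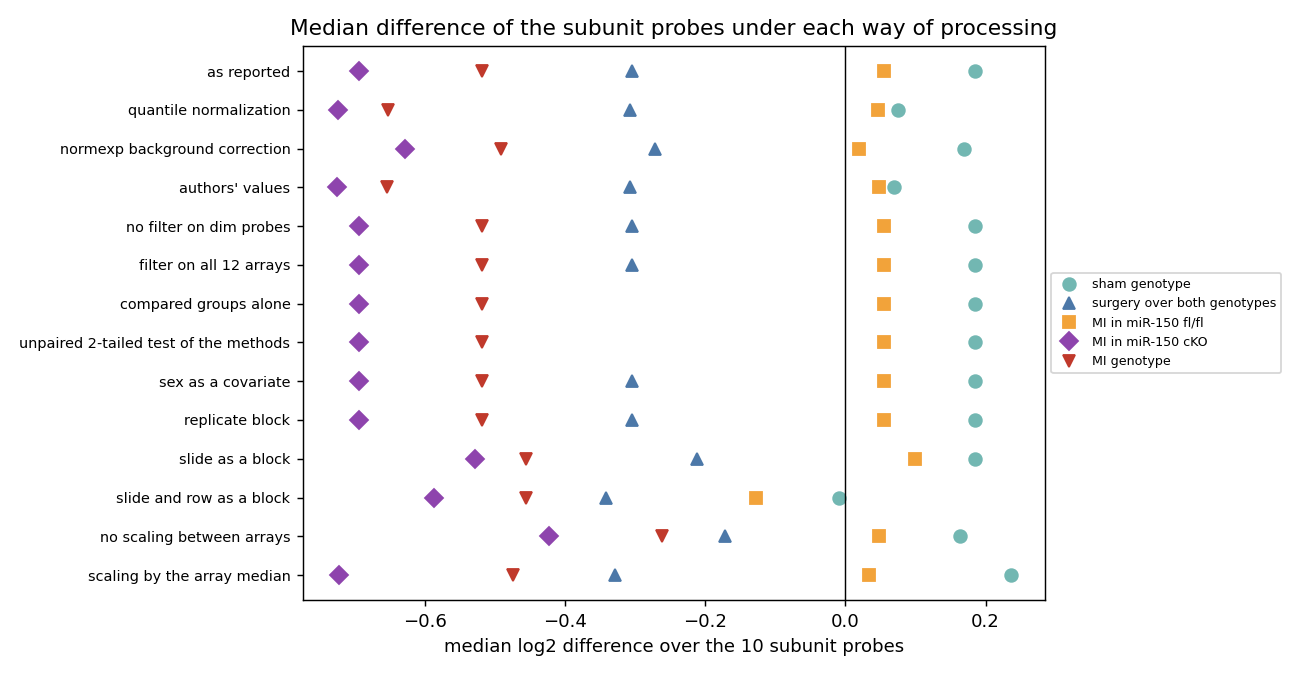
Median log2 difference over the 10 subunit probes (x axis) for 5 comparisons under each way of processing (y axis). The median for MI genotype runs from -0.65 with quantile normalization or the authors' values to -0.26 without scaling, and that for sham genotype from -0.01 to 0.24.

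Loss of miR-150 without infarction was compared in the sham groups, which the choice of members did not use. Between these groups, none of the 10 probes passed the limits (0 of 10), where 0.636% of tested probes were higher and 2.12% lower past them. The log2 differences had a median of 0.18 and ran from -0.06 for Ndufv3 to 0.32 for Atp5j2, and 8 of 10 were above 0, against 44.1% of all tested probes. Among tested probes at least as bright as the dimmest member, the median was 0.11 and 30.2% were below 0. The 15 probes of housekeeping genes had a median of 0.25 here, and 4 of them were below 0. Unadjusted p values by limma ran from 0.173 to 0.817, the lowest adjusted p was 0.640, and no probe had an unadjusted p under 0.05 (0 of 10). These p-values measure the spread between arrays within all groups, because the fit pooled sham and MI arrays. The MI arrays chose the members, so the p-values and the intervals below are not free of that choice. With the sham groups fitted alone, the lowest unadjusted p by limma was 0.217, and again no probe was under 0.05.

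The intervals leave room for differences either way. The 95% confidence interval was -0.23 to 0.29 for Ndufb7, the narrowest, and -0.29 to 0.90 for Ndufa4l2, the widest. Cox7a1 had -0.05 (95% confidence interval -0.51 to 0.41) and Atp5j2 had 0.32 (-0.20 to 0.84). Sham miR-150 fl/fl replicate 1 carried much of the positive median, which was 0.02 without it. Within row 1 of slide 2, sham miR-150 cKO replicate 1 differed from the 3 sham miR-150 fl/fl arrays by a median of -0.01. A fit that blocks on slide and row rests on that same comparison, with 1 sham miR-150 cKO array.

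The members rose and fell together from array to array. Over the 12 arrays, Pearson's r between 2 member probes ran from 0.72 (Atp5e with Ndufs8 NM_001271444) to 0.98 (Uqcrh with Ndufb3), with a median of 0.90 over 45 pairs. After subtraction of each group's mean the median was 0.85 and the lowest 0.43, so much of the shared movement lay between arrays of the same group. The probes of a pair share the array and its scaling. The members were chosen as lower in MI miR-150 cKO than in MI miR-150 fl/fl, and those arrays are among the 12. A high r over the 12 arrays therefore follows in part from the choice, and these values are descriptions. With each probe centred on its mean over the 12 arrays, the mean of the members was -0.31 on sham miR-150 fl/fl replicate 1 and 0.29 and 0.23 on replicates 2 and 3. It was 0.03, 0.32 and 0.34 in sham miR-150 cKO, 0.21, 0.10 and 0.05 in MI miR-150 fl/fl, and -0.51, -0.63 and -0.13 in MI miR-150 cKO.

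The 3 arrays with the lowest member mean, MI miR-150 cKO replicates 1 and 2 and sham miR-150 fl/fl replicate 1, were also the 3 with the highest 75th percentile before scaling (8.87, 8.87 and 8.79). Sham miR-150 cKO replicate 1 came next in brightness (8.77) and had the lowest member mean of its group. The part of array brightness in the shared movement was not tested. The unscaled mean of the members was 13.18, 13.36 and 13.47 in sham miR-150 fl/fl and 13.50, 13.46 and 13.45 in sham miR-150 cKO.

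**Figure D4:**
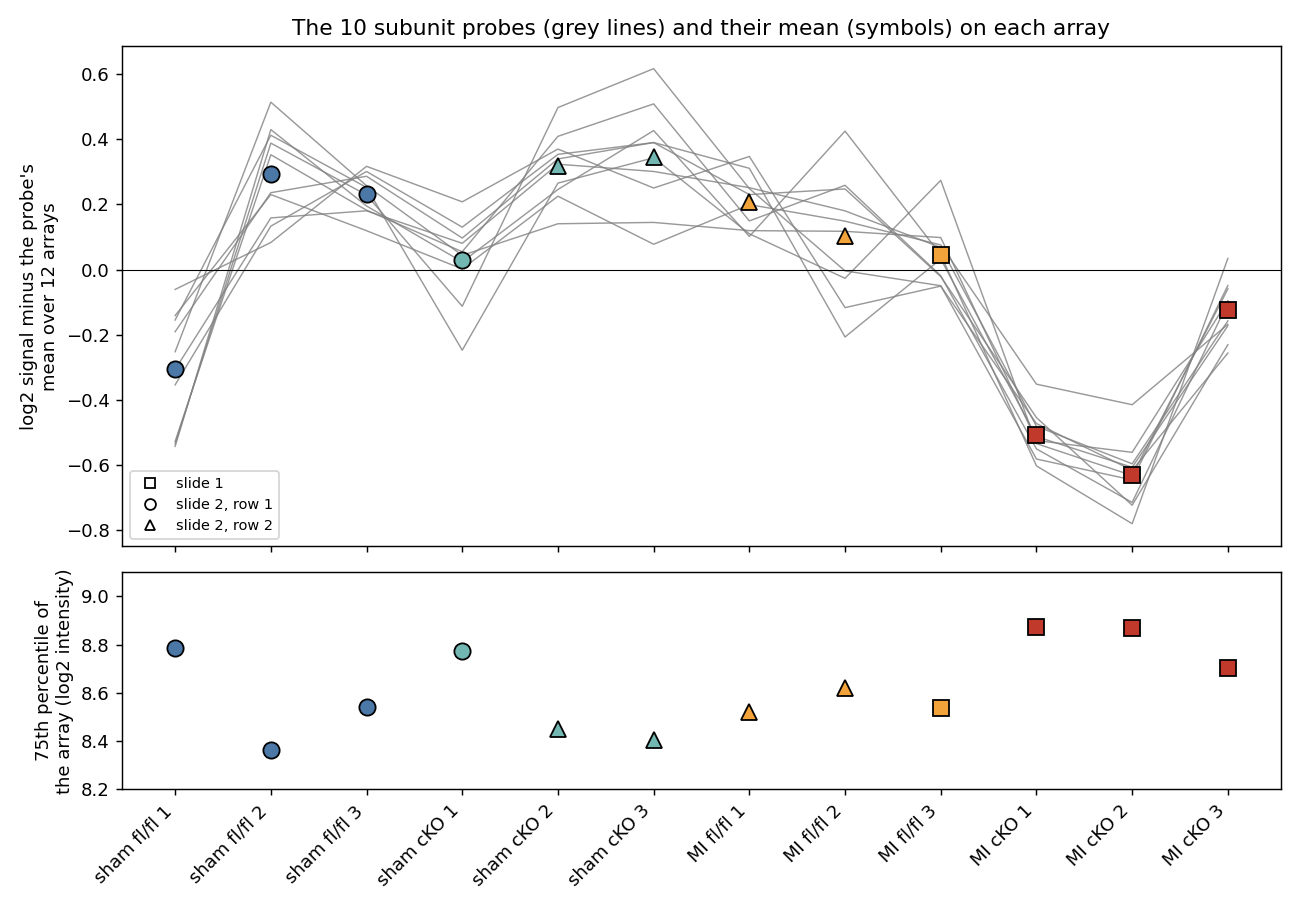
Upper panel: log2 signal of each subunit probe minus its mean over 12 arrays (grey lines) and the mean of the 10 probes (symbols, shaped by slide and row). Lower panel: the 75th percentile of each array before scaling (log2 intensity). The member mean is lowest, at -0.63, -0.51 and -0.31, on the arrays with the highest 75th percentile.

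The profile was shared by other named transcripts. Of the 882 other named and tested probes, the 5 closest to the mean of the members over the 12 arrays were Mrpl42 (r = 0.980), Mrpl41 (0.980), Cmss1 (0.974), Dph3 (0.971) and Mrps28 (0.950). Mrpl42, Mrpl41 and Mrps28 code for proteins of the mitochondrial ribosome, and Dph3 acts in the diphthamide modification of a translation factor. All 5 were named through the same list as the members. After MI the genotypes differed by -0.42 in Mrpl42 and -0.65 in Mrpl41. Of all 54232 tested probes, 414 (0.763%) had an r with this mean of at least 0.892, the r of the least similar member. Each member is part of this mean, which raises its own r. The choice of the members on the MI arrays raises it too, so this share is not read as a result. Against the mean of the other members, the lowest r of a member was 0.869.

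The mitochondrial ribosome makes the subunits of the mitochondrial genome that partner with those described here. Of 10 named mitochondrial ribosomal proteins, 0 were past the limits for MI over both genotypes, with a median of -0.19 and 8 below 0. Of all tested probes, 0.129% were lower and 1.02% higher past the limits there, and 44.2% were below 0. In the sham comparison of genotypes 1 was lower past the limits and 0 were higher, against 2.12% and 0.636% of all tested probes. These counts are not read as a result. The lower probe was that of Mrps2, with -1.67 (SE 0.45, limma adjusted p = 0.509). For Mrps2, 1 of 3 arrays of sham miR-150 cKO stood well above background. Mrps2 was named as lower in this same comparison, so its value is not read as a test. After MI the genotypes differed in both directions, with 7 of 10 lower in miR-150 cKO and 3 higher. All of these except Mrps2 were named as lower or higher in this comparison, so their directions were fixed by the naming. Mrpl40 and Mrps27 were higher by 1.36 and 0.94. Mrps2 was well above background on 1 of 3 MI miR-150 fl/fl arrays, and no size is given for it.

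Other genes of energy supply had few names. Dlst of the tricarboxylic acid cycle was named from a list of 14, Acadvl and Eci1 of fatty acid oxidation from 20, Pdk4, Ucp2 and Ucp3 of fuel switch and uncoupling from 9, and Esrrb from 9 regulators of mitochondrial biogenesis. None of these 7 passed the limits in the sham comparison of genotypes. Of all tested probes, 2.12% were lower and 0.636% higher past them there. Dlst, which takes part in the step from oxoglutarate to succinyl-CoA, read 4.27, 3.91 and 4.00 in sham miR-150 fl/fl, 3.79, 3.77 and 3.43 in sham miR-150 cKO, 4.11, 4.34 and 3.90 in MI miR-150 fl/fl, and 3.43, 3.34 and 3.12 in MI miR-150 cKO. Dlst was named, like the subunits, as lower in MI miR-150 cKO than in MI miR-150 fl/fl, so that direction was fixed by the naming. Its highest sham array was sham miR-150 fl/fl replicate 1, where the mean of the subunits was the lowest of the sham arrays. Pdk4, a kinase that turns pyruvate dehydrogenase off, ran the other way after MI, with a genotype difference of 1.09 and a difference between MI and sham of -1.30 in miR-150 fl/fl. Pdk4 was named as higher in that comparison of genotypes, so its direction there was fixed by the naming. The difference of -1.30 shares the MI miR-150 fl/fl arrays with it.

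Markers of cell types were set beside the subunits, from lists of which few members had names, each through a gene list that the study chose on these samples. None of 8 endothelial markers had a name (0 of 8). For cardiomyocytes, values are given for Myh7, Tcap and Tnnt2. Tcap, a sarcomere protein, read 4.08, 4.14 and 4.35 in sham miR-150 fl/fl, 3.86, 3.87 and 3.92 in sham miR-150 cKO, 4.31, 4.06 and 3.91 in MI miR-150 fl/fl, and 3.41, 3.23 and 3.34 in MI miR-150 cKO, and was lower by -0.77 in the comparison that chose the members. The probes of Tnnt2, cardiac troponin T, had -0.55 each there. Myh7, the fetal myosin of the ventricle, read 3.83, 6.23 and 4.97 in sham miR-150 fl/fl, 7.78, 7.85 and 6.19 in sham miR-150 cKO, 4.68, 5.19 and 4.84 in MI miR-150 fl/fl, and 8.19, 8.26 and 8.06 in MI miR-150 cKO, so it ran against Tcap and Tnnt2 after MI. Tcap and Tnnt2 were named as lower and Myh7 as higher between the genotypes after MI, so these directions follow from the naming. In the sham comparison of genotypes Myh7 was higher past the limits, by 2.26 (SE 0.56, limma adjusted p = 0.509), and neither Tcap nor Tnnt2 passed them.

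Of 10 fibroblast markers 6 were named, of which 5 were higher past the limits in sham miR-150 cKO and 5 after MI over both genotypes. Over all tested probes these shares were 0.636% and 1.02%. All 6 were named as higher after MI in miR-150 fl/fl. Col1a1, Col1a2, Cthrc1 and Postn were also named as higher in sham miR-150 cKO. These counts therefore largely follow from the naming. The log2 of the summed signal of the fibroblast markers was 4.03 to 5.10, 5.45 to 5.80, 6.00 to 6.12 and 5.67 to 6.44 in the same order of groups. Of 11 leukocyte markers 5 were named, of which 4 were higher past the limits in sham miR-150 cKO and 0 after MI. All 5 were named as higher in sham miR-150 cKO, so the count there largely follows from the naming. The leukocyte sums were 4.02 to 4.95, 5.17 to 5.62, 5.03 to 5.27 and 4.72 to 5.39, and 0 of 3 arrays of sham miR-150 fl/fl showed the B cell gene Ms4a1 well above background. The sham array with the lowest mean of the subunits, sham miR-150 fl/fl replicate 1, also had the lowest fibroblast and leukocyte sums of the 12 arrays. Of 14 adipocyte markers 2 were named, Adipoq and Cfd, with 0 past the limits in either comparison, and their sum was -0.17 to 1.67 in MI miR-150 fl/fl, with the top on replicate 2, and -2.18 to -1.59 in MI miR-150 cKO. Adipoq and Cfd were named as lower in MI miR-150 cKO than in MI miR-150 fl/fl, so that order of their sums follows from the naming. The part of these cell types in the levels of the subunits was not tested.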

How the data were processed

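Total RNA of 12 left ventricles was hybridised to 1-colour Agilent arrays, 1 heart per array. The authors deposited scanner intensity values, extracted per the submitters' processing notes with Agilent Feature Extraction 11.0.1.1, and a table of processed log2 values whose normalization is not given in the sources used here. The log2 of the processed intensity minus the 75th percentile of each array was used, without control spots and outlier flags (435 spots, 0.0593%), and spots of a probe were averaged. Probes well above background on at least 3 arrays were tested (54232 of 60819, with 6587 dim probes left out). The files hold probe identifiers without genes. Probes were named where the fold and p computed from the deposited log2 values matched exactly 1 entry of the study's list of differing genes (963 entries). The fold changes and p-values in that list served only as this key, and 15 housekeeping genes were named by accession.

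One limma model over the 4 groups was fitted (limma 3.58.1 in R 4.3.3), with Benjamini-Hochberg adjustment over all tested probes and limits of a 1.5-fold difference and an unadjusted p of 0.05. The total degrees of freedom were 10.4, and the number of arrays limits the precision. The fit was also run on simulated data with independent noise for each probe and array. That run held no effect of slide, row or array brightness, so it does not bear on the shared movement of the members. Sham genotype was tested. A test of MI over both genotypes was planned too, but its p-values are not reported, because the comparison uses the MI arrays that chose the members and their spread was unequal between genotypes. All probes of the member genes were named in the text, with the 5 other named probes most like their mean. The members and gene lists were chosen with earlier results of these data known. Alternatives covered normexp correction (offset 50), quantile normalization, the deposited log2 values, filters on dim probes, slide and row (inferred from scan batches and array positions), sex and replicate number as terms, and leaving out each array. The same replicate numbers in different groups did not deviate together (18 pairs, r -0.28 to 0.27, 6 over 0.1). A comparison of protein sequences was not run, because no protein table was used here. Results of 1 cardiomyocyte marker, and counts and sums that include it, are not reported here.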

Additional observations from a re-analysis of the deposited data

How the results depend on the processing

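The numbers of replicates pair no samples, and with a replicate block the medians were 0.18 for sham genotype and -0.30 for MI over both genotypes, with 0 probes past the limits. With slide as a block the medians were 0.18 and -0.21, and -0.46 for MI genotype. Blocking on slide and row put 1 probe, Cox7a1 (log2 difference -0.81), past the limits for MI over both genotypes, a count that is not read as a test. Without scaling between arrays, an alternative chosen after seeing the data like scaling by the array median, the MI genotype median was -0.26 and that of MI in miR-150 cKO -0.42. The cause of these shifts was not tested. In sham genotype, Ndufb7 reversed to -0.092 with quantile normalization, -0.095 with the deposited log2 values and -0.068 under the block of slide and row, under which Ndufs8 NM_001271443 was -0.014, Ndufa4l2 -0.14 and Atp5e -0.0037. Cox7a1 was 0.0021 with scaling by the array median. With 1 array left out at a time, Ndufb7 ran from -0.073 to 0.11, Atp5e from -0.080 to 0.41, Cox7a1 from -0.21 to 0.13 and Ndufv3 from -0.28 to 0.11. Of 250 single-probe values for sham genotype, 237 kept direction and side of the limits and 13 reversed, and of 230 for MI over both genotypes 229 kept both and 0 reversed. Several settings cannot move the sham estimate, so the count for sham genotype overstates how stable its directions are. These settings include leaving out an MI array, the filters on dim probes, other tests of the same values, and slide as a block. Leaving out 1 array gave medians of 0.02 to 0.28 for sham genotype, -0.41 to -0.23 for MI over both genotypes, -0.69 to -0.42 for MI genotype, -0.83 to -0.59 for MI in miR-150 cKO and -0.14 to 0.17 for MI in miR-150 fl/fl. The number of probes past the limits was 0 without each array for sham genotype and for MI over both genotypes. MI over both genotypes was not fitted on the compared groups alone or with the methods' unpaired test. With 3 arrays a group, intervals for single subunits span differences of either sign in the sham comparison.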
